A study of Mus musculus with 8 samples.

Results

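The tubular injury genes Havcr1, Lcn2, Vcam1, Sox9, Clu, Cd44, Vim and Anxa2 were followed in kidney RNA of NEKO and control mice. These 8 genes were taken by name, out of 18217 genes named on the array, and 13570 of those genes, all 8 members included, passed the filter on dim probes. The list is read by 14 of the 41174 probes, of which 11 passed the filter. The mice were 8 weeks old, with 2 females and 2 males in each group. NEKO mice carried Keap1-/-::Nrf2Flox/Flox::K5-Cre. Controls were Keap1+/-::Nrf2Flox/Flox, without Cre in 1 female (K1) and with K5-Cre in 3 mice (K1Cre), so every mouse of both groups carried the floxed Nrf2 alleles and every control had lost 1 copy of Keap1. K5-Cre acts in squamous epithelium, and the strain background was mixed, from 129Sv/J and C57BL/6J.

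A healthy kidney tubule keeps most of these genes low, and tubule cells turn many of them on after ischaemic, toxic or obstructive damage. Havcr1 encodes KIM-1, a receptor that lets damaged proximal tubule cells engulf dead neighbours, and Lcn2 encodes NGAL, a protein that binds iron-carrying siderophores. Both are used as urine markers of kidney injury. Sox9 is a transcription factor of repairing tubule cells, Cd44 is the hyaluronan receptor, Vim is the intermediate filament of mesenchymal and dedifferentiated cells, Vcam1 is an adhesion molecule found on endothelium and on tubule cells that fail to recover, Clu is a secreted chaperone, and Anxa2 is a membrane-binding annexin. Several are also made by fibroblasts, leukocytes or endothelium, and in RNA of a whole kidney fewer cells of a type and less RNA per cell cannot be told apart.

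Levels below are log2 processed signals relative to the 75th percentile of the mouse's own array, so a level can be compared between mice for 1 gene but not between genes. Keap1 itself was lower in NEKO mice (1.84 ± 0.070 in controls and 0.20 ± 0.17 in NEKO mice, SD, n = 4 each). Between 61.8% and 65.7% of the probes were well above background on each array. All females lay on 1 slide and all males on the other, and on both slides the controls held positions 1 and 2 and the NEKO mice positions 3 and 4. Sex and slide therefore cannot be told apart, nor can genotype and position on the slide. The proximal tubule list (Slc34a1, Slc5a2, Lrp2, Cubn, Slc22a6, Slc27a2 and Aqp1) lay far above the 75th percentile on every array. Its mean level was 6.25 to 6.62 in controls and 6.40 to 6.54 in NEKO mice, and no other tissue was compared.

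Over all 8 mice, none of the 8 genes was called higher or lower in NEKO kidneys by limma at an adjusted p under 0.05, against 0.111% of all named genes tested called higher and 0.169% called lower. At an unadjusted p under 0.05, limma gave 3 members higher (Sox9, Lcn2 and Vim) and 1 lower (Clu), where 8.16% and 10.1% of all named genes reached that threshold. The difference was positive for 6 members and negative for 2, and the median over the members was 0.34 on the log2 scale against -0.019 over all named genes tested. In males limma called 3 members higher (Cd44, Sox9 and Vim) and none lower, while the called shares of all named genes within males were 3.24% higher and 1.81% lower. At an unadjusted p under 0.05, 4 members were higher in males and 1 lower (11% and 10.5% of all named genes). In females none was called by limma, and the shares of all named genes there were 0.0516% and 0.0221%. At an unadjusted p under 0.05, none was higher in females and 1 was lower (Cd44), against 3.03% and 5.09%. The median of the members was 0.83 in males and -0.18 in females, against -0.030 and -0.013 over all named genes. No member passed the test of the difference between the sexes at an adjusted p under 0.05, where 0.00737% of all named genes were called in each direction. At an unadjusted p under 0.05, 2 members (Cd44 and Vim) had a larger effect in males, against 7.19% of all named genes in that direction and 3.91% in the other.

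**Figure D1:**
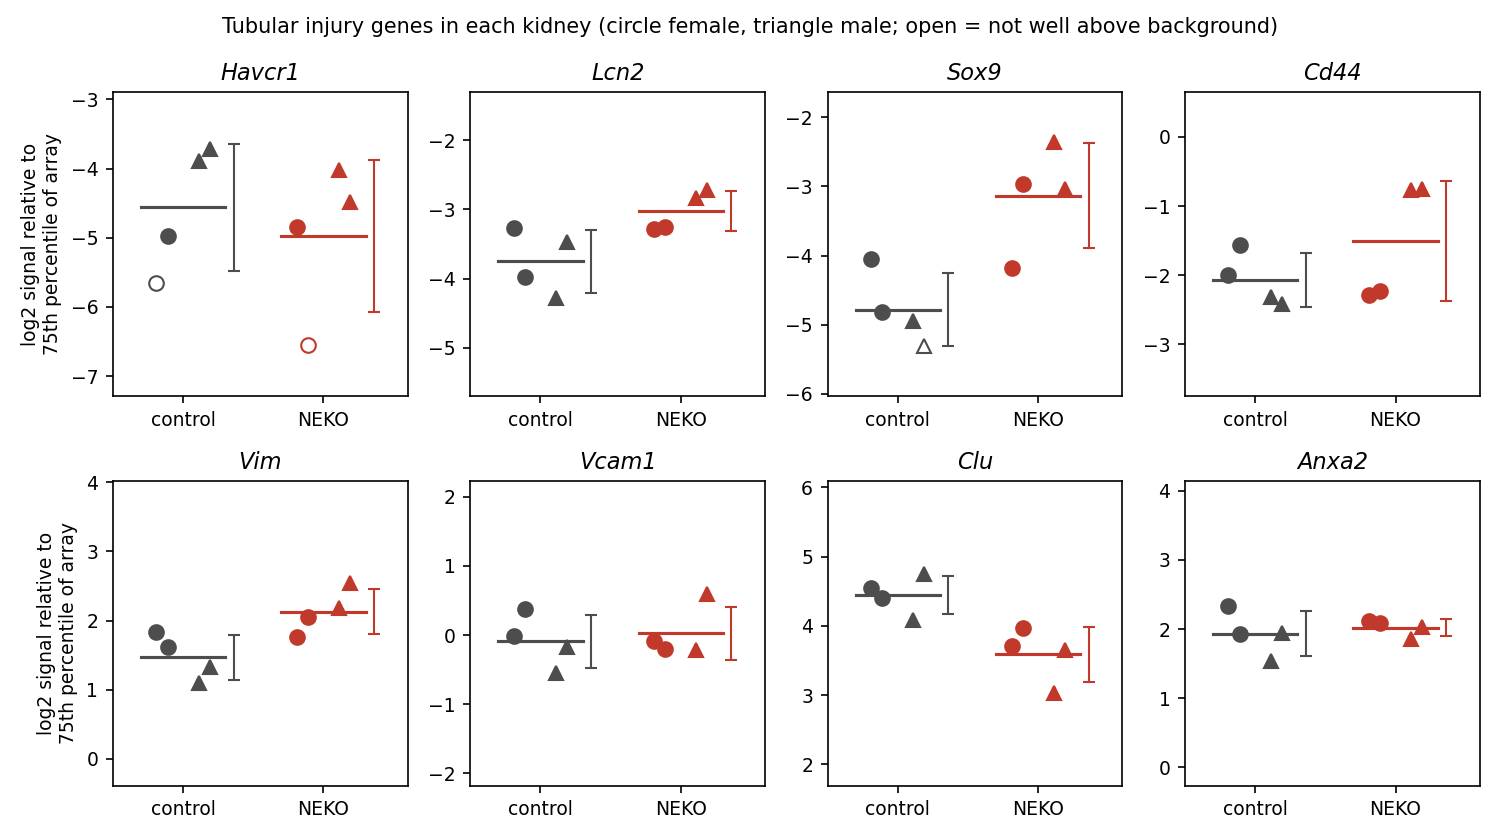
Each panel plots the log2 level of 1 tubular injury gene, scaled to the 75th percentile of its array, in 4 control and 4 NEKO kidneys, with circles for females, triangles for males, open symbols where the probe was not well above background, a line for the mean and a bar for the SD. Every NEKO mouse sits below every control for Clu, and in Cd44 the NEKO males (-0.77 and -0.76) sit apart from the NEKO females (-2.29 and -2.22), all panels spanning the same number of log2 units.

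Havcr1 (NM_134248), the gene for the injury receptor KIM-1, was not called in either direction. Its level was -5.65 and -4.97 in the control females and -3.89 and -3.72 in the control males. In NEKO mice it was -4.84 and -6.54 in the females and -4.03 and -4.49 in the males. Genotypes overlapped, and the males of both groups lay above all females. The NEKO minus control difference was -0.42 (95% interval -1.28 to 0.44, adjusted p = 0.56 from limma). Under normexp background correction it was -0.099 (adjusted p = 0.61 from limma). The probe was not well above background on the arrays of control 1 and NEKO 3, both female, so the lowest values on each side are near background. In males the difference was -0.45 and in females -0.38. Male minus female was 1.51 in controls and 1.43 in NEKO mice (adjusted p = 0.29 and 0.24 from limma), and this contrast is also that of the slides.

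Lcn2 (NM_008491), the siderophore-binding marker NGAL, was higher in NEKO males than in the other mice. Control levels were -3.27 and -3.97 in females and -4.28 and -3.47 in males. NEKO levels were -3.28 and -3.25 in females and -2.84 and -2.72 in males. Of the 4 NEKO mice 3 lay above all controls, and NEKO 2 lay just below control 1. The difference was 0.73 (standard error 0.25, a 1.66-fold ratio, adjusted p = 0.21 from limma), with a two-sided exact permutation p of 0.057. In males the difference was 1.10 (95% interval 0.33 to 1.88, adjusted p = 0.13 from limma), and in females it was 0.36 (-0.42 to 1.13). Under normexp background correction the difference was smaller, 0.44 over all mice and 0.63 in males (adjusted p = 0.14 and 0.077 from limma).

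Sox9 (NM_011448), the repair transcription factor, had a difference that depended on the background correction. The control females were at -4.05 and -4.81 and the control males at -4.95 and -5.31, the last not well above background. The NEKO females were at -4.17 and -2.96 and the NEKO males at -2.36 and -3.04. Apart from NEKO 2, which lay below control 1, every NEKO mouse exceeded every control. Over all mice the difference was 1.65 (standard error 0.43, a 3.13-fold ratio, adjusted p = 0.14 from limma, two-sided exact permutation p = 0.057). Under normexp background correction it was 0.87 (adjusted p = 0.11, in a range of 0.067 to 0.37 over the alternatives other than leaving out a mouse). Within males it was 2.43 (standard error 0.47, a 5.38-fold ratio, adjusted p = 0.047 from limma), and within females 0.87 (95% interval -0.28 to 2.01, adjusted p = 0.61). The call in males was lost under normexp background correction, which gave 1.22 (adjusted p = 0.05001, in a range of 0.036 to 0.091 over the alternatives other than leaving out a mouse), with no filter on dim probes (adjusted p = 0.091), and in 6 of the 8 fits that left out 1 mouse. Those fits left out control 1 or control 8 (adjusted p = 0.070 for each), control 4 (0.17), control 7 (0.16), NEKO 5 (0.15) or NEKO 6 (0.12). A second Sox9 probe was not well above background in any control and was so in 3 of 4 NEKO mice, and its mean NEKO level was at least 2.17-fold above the floor that the control arrays allow. The third did not reach that mark on any of the 8 arrays.

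Cd44 (NM_009851), the hyaluronan receptor, had differences of opposite sign in the sexes. Its level was -2.0 and -1.56 in control females and -2.29 and -2.22 in NEKO females. It was -2.32 and -2.42 in control males and -0.77 and -0.76 in NEKO males. Both NEKO males thus lay above every other mouse, and both NEKO females below both control females. In males the rise was 1.61 (standard error 0.16, a 3.04-fold ratio, adjusted p = 0.0072 from limma), and it was called under all 9 alternatives and in all 8 fits that left out 1 mouse. In females the difference was -0.48 (95% interval -0.86 to -0.095, adjusted p = 0.50 from limma). The effect in males minus that in females was 2.08 (95% interval 1.54 to 2.62, adjusted p = 0.063 from limma), which is not called. It was called under normexp background correction alone among 9 alternatives (1.61, adjusted p = 0.045, in a range of 0.045 to 0.10). Pooled over the sexes the difference was 0.56 (95% interval -0.40 to 1.52, adjusted p = 0.48). A second Cd44 probe had levels of -5.32 and -4.75 in control females, -5.34 and -4.84 in NEKO females, -6.10 and -5.89 in control males and -3.77 and -3.46 in NEKO males. It was well above background in 1 of 4 controls and 3 of 4 NEKO mice, and in neither control male, so it passed the filter mainly through the NEKO arrays and is given as a description. Its mean in NEKO males was 3.22-fold above the dimmest detected signals of the control male arrays, which are not this probe's own detection limit. The third was not detected above background on any of the 8 arrays.

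Vim (NM_011701), the mesenchymal intermediate filament, was highest in the NEKO males. Control levels were 1.83 and 1.62 in females and 1.09 and 1.33 in males, and NEKO levels were 1.76 and 2.05 in females and 2.18 and 2.54 in males. Of the NEKO mice 3 lay above all controls, and NEKO 2 lay below control 1. The difference was 0.66 (standard error 0.22, a 1.58-fold ratio, adjusted p = 0.20 from limma). In males it was 1.15 (standard error 0.18, a 2.22-fold ratio, adjusted p = 0.028 from limma), and in females 0.17 (95% interval -0.27 to 0.62). The male minus female difference of the effects was 0.97 (adjusted p = 0.24). The call in males was lost with no filter on dim probes (adjusted p = 0.060, in a range of 0.014 to 0.060) and without control 1 or control 8 (0.053 for each), control 4 (0.15), control 7 (0.069) or NEKO 6 (0.12).

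Vcam1 (NM_011693), the ligand of alpha-4 integrins, overlapped between the genotypes. Its levels were -0.01 and 0.38 in control females, -0.55 and -0.18 in control males, -0.08 and -0.21 in NEKO females and -0.21 and 0.59 in NEKO males. The difference was 0.11 (95% interval -0.49 to 0.71, adjusted p = 0.83 from limma). Its sign rested on single mice, being -0.050 without control 4 and -0.14 without NEKO 6. Within females the difference was -0.33 and within males 0.55, neither of them called. A second Vcam1 probe, well above background on all 8 arrays, differed by 0.18 in females and by 1.21 in males.

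Clu (NM_013492), the secreted chaperone clusterin, is a gene that rises in many models of kidney injury, and here it lay lower in all 4 NEKO mice than in any control. Its levels were 4.55 and 4.40 in control females and 4.08 and 4.75 in control males, against 3.71 and 3.97 in NEKO females and 3.03 and 3.66 in NEKO males. It was the 1 member of 8 whose groups did not overlap, and 5.09% of all named genes had every NEKO mouse below every control and 4.5% had every NEKO mouse above. The two-sided exact permutation p was 0.0286, the smallest that 4 mice against 4 can give. By limma the difference was -0.85 (standard error 0.21, 1.81-fold lower, adjusted p = 0.13), which is not called. It was -0.64 in females and -1.07 in males (adjusted p = 0.57 and 0.11). Under quantile normalization the groups of Clu overlapped and those of Lcn2 did not.

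Anxa2 (NM_007585), the annexin that binds S100a10, overlapped between the groups. The control levels were 2.33 and 1.93 in females and 1.54 and 1.94 in males, and the NEKO levels were 2.11 and 2.08 in females and 1.85 and 2.04 in males. The 4 NEKO values lay inside the range of the controls. The difference over all mice was 0.086 (95% interval -0.23 to 0.41, adjusted p = 0.76 from limma), so a rise above 0.41 on the log2 scale is outside this interval. Such a rise is inside the interval for males, where the difference was 0.21 (-0.26 to 0.67). In females it was -0.033 (-0.50 to 0.44). A second probe differed by 0.073 over all mice. Without control 4 the sign of the first probe's difference over all mice turned, to -0.017.

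**Figure D2:**
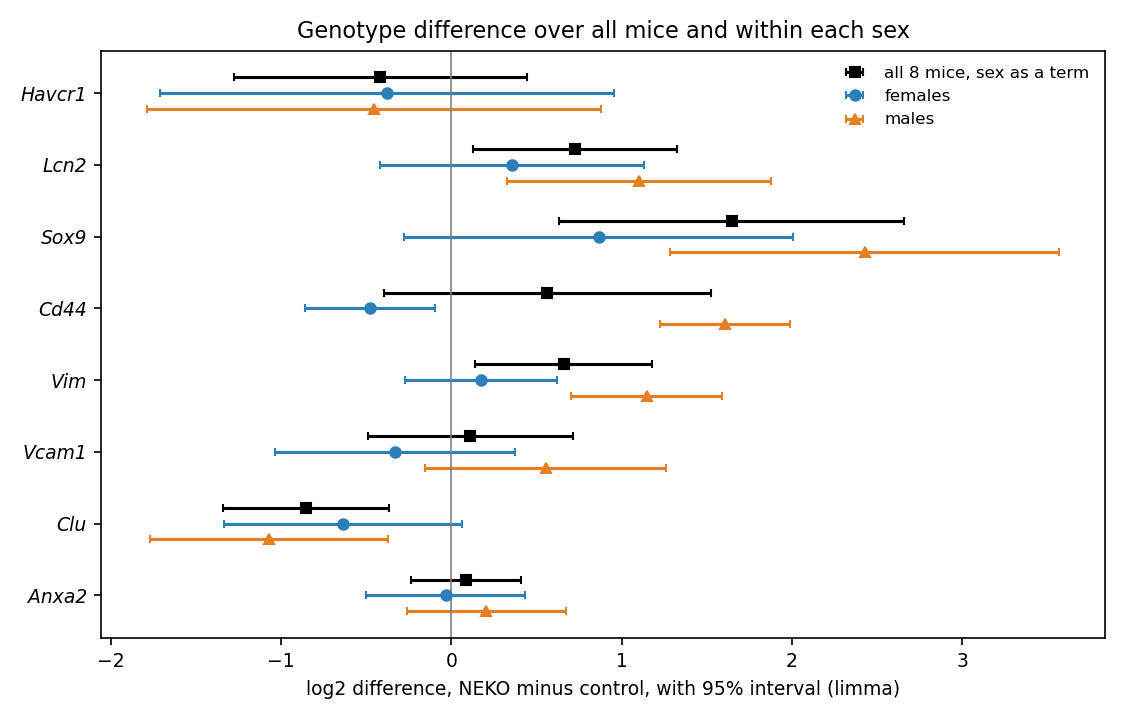
The log2 difference between NEKO and control mice, with its 95% interval from limma, is plotted for each tubular injury gene over all 8 mice (squares), within females (circles) and within males (triangles). The interval for males lies above 0 for Lcn2, Sox9, Cd44 and Vim and below 0 for Clu, and for Cd44 the intervals of males (1.22 to 1.99) and females (-0.86 to -0.095) do not overlap.

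Within males, both NEKO mice lay above both controls for 4 members (Lcn2, Sox9, Cd44 and Vim) and below both for 2 (Havcr1 and Clu), where 24.9% and 29.5% of all named genes did so. Within females, both NEKO mice lay above both controls for none of the 8 and below both for 3 (Vcam1, Clu and Cd44), where the shares were 18.9% and 22.9%. These counts use 1 probe per gene. On the second probes of Vcam1 and Cd44 the females of the 2 groups overlapped, with differences of 0.18 and -0.061. Each within-sex contrast sets 2 mice against 2, with the spread pooled over the 4 combinations of genotype and sex.

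**Figure D3:**
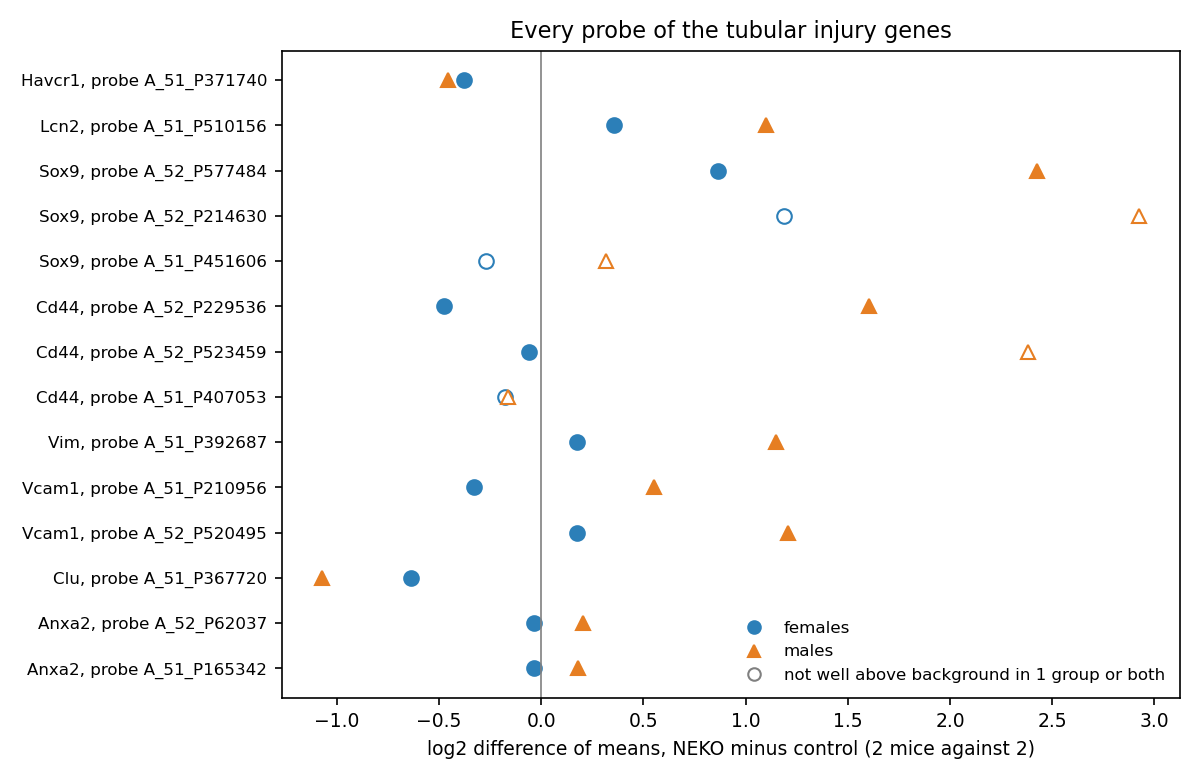
Each of the 14 probes of the tubular injury genes is a row, with the log2 difference of means between 2 NEKO and 2 control mice for females (circles) and males (triangles), and open symbols mark differences in which 1 group of that sex, or both, had no array well above background and whose size is therefore not measured. For Vcam1 and Anxa2, whose 2 probes are filled in both sexes, both probes put the males to the right of the females.

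The start regions of 2 genes called higher in males, Vim and Cd44, and of Anxa2, which was not called, are shown for comparison of the motifs they hold. RefSeq promoters (GRCm38.p6) were in hand for 5 of the 8 members, and the others are Sox9, Clu and Vcam1. The 250 bases before each start were searched on both strands for the antioxidant response element core TGACNNNGC, which Nrf2 and small Maf proteins bind, for the AP-1 site TGANTCA, and for the NF-kB consensus. A TGACNNNGC match can overlap an AP-1 match. Capitals mark motif matches, and each run reads 5′ to 3′ along the gene's own strand.
Vim, chr2:13574061-13574310, plus strand: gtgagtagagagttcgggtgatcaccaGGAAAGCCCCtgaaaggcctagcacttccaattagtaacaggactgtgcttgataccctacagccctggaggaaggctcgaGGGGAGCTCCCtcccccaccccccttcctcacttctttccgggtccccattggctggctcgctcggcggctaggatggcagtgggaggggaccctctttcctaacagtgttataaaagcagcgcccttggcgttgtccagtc
Cd44, chr2:102901666-102901915, minus strand: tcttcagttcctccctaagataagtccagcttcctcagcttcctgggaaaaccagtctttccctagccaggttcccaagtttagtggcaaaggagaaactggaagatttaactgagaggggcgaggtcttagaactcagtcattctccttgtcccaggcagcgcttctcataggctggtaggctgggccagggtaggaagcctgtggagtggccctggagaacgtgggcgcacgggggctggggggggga
Anxa2, chr9:69453433-69453682, plus strand: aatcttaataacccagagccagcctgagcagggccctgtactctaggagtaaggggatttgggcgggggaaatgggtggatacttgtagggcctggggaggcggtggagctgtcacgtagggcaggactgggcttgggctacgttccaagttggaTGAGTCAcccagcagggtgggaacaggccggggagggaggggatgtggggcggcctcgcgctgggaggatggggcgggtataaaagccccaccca
Vim held NF-kB matches in 2 places, starting 223 and 141 to 142 bases before the start, Anxa2 held the AP-1 match TGAGTCA 95 bases before its start, and the windows of Cd44, Lcn2 and the 3 start sites listed for Havcr1 held none. Over 32851 promoters of that length, the antioxidant core was in 10.2%, the AP-1 site in 6.75% and the NF-kB consensus in 7.25%. None of the member windows held the antioxidant core.

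Other injury genes were counted from lists chosen for their roles, with earlier results of these data known. Of 15 tested secreted injury markers, 1 was called over all mice, the growth and differentiation factor Gdf15 (0.61 in controls and 2.30 in NEKO mice, a difference of 1.69, adjusted p = 0.041 from limma). Within males 3 of the 15 were called, Gdf15 (1.97, adjusted p = 0.018), the protease inhibitor Timp1 (1.86, adjusted p = 0.038) and complement C3 (4.54, adjusted p = 0.021), all higher. The list's median was 0.17 over all mice, 0.041 in females and 0.53 in males. Cxcl1, a neutrophil-attracting chemokine, was well above background in 2 of 4 controls and in all 4 NEKO mice, and it differed by 1.27, with every NEKO mouse above every control (adjusted p = 0.12), while the interleukin Il18 differed by -0.47 (adjusted p = 0.067). Neither was called, nor were Igfbp7 (-0.055) and Angptl4 (-0.048), the lowest of the list after Il18.

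Among 15 early stress response genes none was called over all mice, and Sprr1a (2.95, adjusted p = 0.015) and the urokinase receptor Plaur (1.57, adjusted p = 0.0059) were called higher within males. The stress factor Atf3 differed by -0.51, the cell cycle inhibitor Cdkn1a by -0.74 and Tnfrsf12a, the TWEAK receptor, by -0.47 (adjusted p = 0.51, 0.24 and 0.17 from limma). Krt20 differed by 1.37 (adjusted p = 0.20). Of 22 genes of dedifferentiation and failed repair, none was called over all mice and 3 were called higher within males. They were the simple-epithelium keratins Krt18 (1.67, adjusted p = 0.014) and Krt19 (2.86, adjusted p = 0.0044) and the calcium-binding S100a6 (1.46, adjusted p = 0.018). The integrin subunit Itgb6 differed by -0.56 over all mice (adjusted p = 0.17), the cytokine Il34 by -0.35 (adjusted p = 0.47) and Krt7 by -0.27 (adjusted p = 0.38).

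Ligands, receptors and relatives of the members gave few calls. Of 29 tested partners none was called over all mice. Within males limma called 2 higher, the integrin subunit Itga9 (0.90, adjusted p = 0.021), which binds Vcam1, and the annexin Anxa1 (0.89, adjusted p = 0.045). The Anxa2 partner S100a10 differed by 0.33 (adjusted p = 0.20) and Anxa7 by 0.52 (adjusted p = 0.058). Slc22a17, a receptor of Lcn2, differed by -0.32 (adjusted p = 0.28). Mmp9, the protease that Lcn2 binds, was well above background in 1 of 4 controls and in all 4 NEKO mice, and it was not called (adjusted p = 0.23). Timd2, a relative of Havcr1, differed by -0.64 and Cd74, a partner of Cd44, by -0.46 (adjusted p = 0.41 and 0.35). Among 20 tubule function genes none was called over all mice, and within males the dicarboxylate carrier Slc13a3 rose by 1.39 (adjusted p = 0.036) and the growth factor Egf fell by 1.76 on the log2 scale (adjusted p = 0.0105). The proximal phosphate carrier Slc34a1 differed by 0.075 (adjusted p = 0.63). The organic anion carriers Slc22a8 and Slc22a6 differed by 0.82 and 0.34, Slc7a13 by -1.46 and Cyp4b1 by -0.80, none of them called.

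Markers of other cells were also called in the males, in which Cd44, Sox9 and Vim rose, and their part in the result was not tested. Of 10 fibroblast and mural markers 5 were called higher within males (Pdgfrb, Col1a1, Col1a2, Dcn and Lum). Their list had a mean level of 1.11 to 1.16 in control males and 1.95 to 2.59 in NEKO males, against 1.71 to 1.82 in control females and 1.54 to 1.62 in NEKO females. Of 9 urothelium markers 5 were called higher within males (Upk1b, Upk2, Upk3a, Upk3b and Psca), with a mean level of -3.09 to -2.52 in control males and -1.21 to -0.98 in NEKO males. Of 11 macrophage markers 2 were called higher within males (Ccr2 and Lyz2), with a mean level of -1.35 to -1.34 in control males and -1.0 to -0.23 in NEKO males. That mean includes Itgam, which was not well above background in either control male. Of 7 lymphocyte markers 1 was called higher within males (Cd3g), and the mean level went from -3.69 to -3.63 in control males to -3.21 to -3.12 in NEKO males. Some markers of these lists were lower within males, none of them called. They included Csf1r (macrophage, -0.67), Tagln (fibroblast and mural, -0.62), Cd8a (lymphocyte, -0.58) and Upk1a (urothelium, -0.20). Of the 10 neutrophil markers 3 could be tested and none was called within males. Their mean level was -3.46 to -3.34 in control males and -2.10 to -0.59 in NEKO males. Within males S100a9 differed by 2.81 (adjusted p = 0.12) and Mpo by 0.35 (adjusted p = 0.45), both from limma. S100a8, the third, was well above background on 1 control and 3 NEKO arrays, and in neither control male. It passed the filter mainly through the NEKO arrays, so the size of its difference, and that of the list mean, is not measured.

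The intercalated cell list went the other way, with 4 of 6 markers called lower within males (Atp6v1b1, Aqp6, Atp6v0d2 and Slc26a4). Its mean level was 0.47 to 0.57 in control males and -1.76 to -0.64 in NEKO males. Aqp6 was well above background in only 1 NEKO male, so the NEKO mean includes a value near background. In females the mean level was 0.86 to 1.06 in controls and 0.25 to 0.50 in NEKO mice, with no marker called. Kcnj1 of the thick ascending limb and Scnn1b of the principal cell were also called lower within males, out of 4 and 5 markers tested. No marker of the endothelial (8 tested), podocyte (6), proximal tubule (7) or distal convoluted tubule (4) lists was called within males. The distal convoluted tubule list still had a lower mean level in NEKO males, 0.38 to 0.46 against 1.14 to 1.58 in control males. Within males Pvalb differed by -1.95 (adjusted p = 0.051 from limma), Trpm6 by -1.09, Slc12a3 by -0.91 and Calb1 by 0.20. Of 17 tested Nrf2 targets 2 were called over all mice, Gpx2 (5.40, adjusted p = 0.011) and Txnrd1 (1.30, adjusted p = 0.049), and 11 within males. Akr1b8 (2.64) and Ces1g (3.1) were among the highest of the list, and Hmox1 (-0.078), Taldo1 (0.26) and Tkt (0.56) were the lowest. The median of the Nrf2 targets was 0.73 in females and 1.66 in males.

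**Figure D4:**
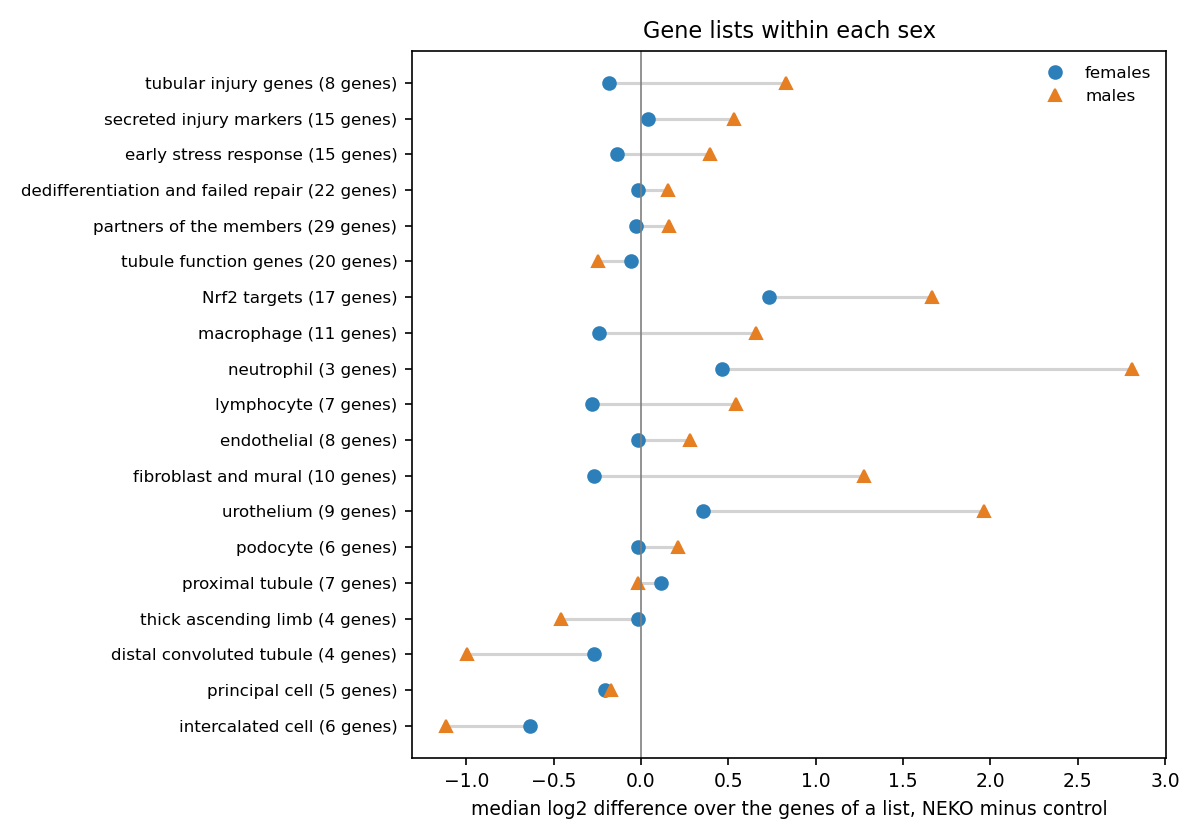
For each gene list, with the number of genes tested in brackets, the median log2 difference between NEKO and control mice is plotted within females (circles) and within males (triangles). The tubular injury genes lie at -0.18 in females and 0.83 in males, and the Nrf2 targets at 0.73 and 1.66. All other lists also lie further right in males, except 5 that lie further left. Those are the tubule function, proximal tubule, thick ascending limb, distal convoluted tubule and intercalated cell lists.

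Genes with the most similar pattern over the 8 mice were found by the root mean square difference in log2 level, after the mean of the controls was taken from each gene, among 13511 named genes. Nearest to Havcr1 were Inmt (0.30), Rundc3a (0.36), Col24a1 (0.36), Chrm1 (0.41) and Pramel39 (0.42). Nearest to Lcn2 were Chst12 (0.20), Tkt (0.20), Lxn (0.22), Acat2 (0.22) and Notch3 (0.22). The nearest genes to Clu and Cd44 were looked up after their values were seen. For Clu these were Cox7a1 (0.15), S100g (0.18), Oas1a (0.18), Oasl1 (0.18) and Usp18 (0.19), and for Cd44 they were Tnfrsf18 (0.16), Kcnn4 (0.18), Gli3 (0.19), Il18r1 (0.19) and Samsn1 (0.20).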

How the data were processed

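Total RNA of 8 kidneys was labelled with Cy3 and hybridised to Agilent 1-colour arrays, 1 per mouse. The authors deposited Feature Extraction (10.7.3.1) output, in which the processed signal is a background-subtracted intensity. A second file that the authors deposited holds log2 values, equal to the log2 processed signal scaled to the array's 75th percentile and centred per probe (99.9% within 0.01 of recomputed ones). For its statistics in general the study's methods name an unequal-variance comparison of unpaired groups, and they name no normalization for the arrays. Groups came from the labels.

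Outlier spots were left out and spots of a probe averaged. Values were log2 processed signals minus the 75th percentile of non-control probes. A probe was kept if detected above background on 4 or more of the 8 arrays with values on 6 or more, and the brightest such probe stood for its gene. Names came from RefSeq (GRCm38.p6, 26690 of 41174 probes matched). limma 3.58.1 (R 4.3.3) was fitted with genotype and sex, and again with their interaction, with Benjamini-Hochberg adjustment over 19593 genes and unnamed transcripts and calls at an adjusted p under 0.05. The fit was tested on simulated data. Single genes were also compared by two-sided exact permutation (SciPy 1.17.1). The number of arrays limits the precision. Where no array of a group detected a probe, its level there was set no lower than the dimmest detected signal of each array. That signal is not the detection limit of the probe itself, so the result is not a firm bound.

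The members and lists were chosen with earlier results of these data known. Named genes are all members, the called genes of each list and otherwise its 3 highest and 3 lowest, and the 5 genes nearest to Havcr1 and to Lcn2. Of the cell type lists not all of these are printed. Genes called within males and S100a10 were named after their values were seen. Alternatives were normexp background correction (offset 50, from median spot and local background signals), quantile normalization, scaling to probes detected on all arrays, no filter or detection on all 8 arrays, the mean of kept probes, no sex term, slide as a random block, averaging over the sexes, array weights, eBayes with trend and robust, the methods' comparison, the deposited matrix, and leaving out each mouse. Alternatives for the within-sex values were added after seeing the data.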

Additional observations from a re-analysis of the deposited data

Results flagged for a closer look

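Cd44 was marked because the genotype difference in males minus that in females was 2.08 on the log2 scale, with both NEKO males above and both NEKO females below the controls of their own sex. The interaction had an adjusted p of 0.063 from limma.

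Vcam1 was marked because NEKO 6, a male, lay far above the other 3 NEKO mice. The gap to the nearest of them was 0.844 of the range of the group, with a level of 0.59 against -0.21 to -0.08. Of 16 groups of 4 mice looked at, 1 was marked, where chance alone marks about 1 in 20.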

How the results depend on the processing

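No paired analysis was possible because the replicate numbers run over both groups and no number is shared. Over all mice, 0 members were called higher and 0 lower under each limma alternative and with each mouse left out, while the methods' comparison gave 3 higher and 1 lower without adjustment and 0 with it. The number of members whose effect differs between the sexes was 0, and 1 (Cd44) under normexp. The number whose groups do not overlap was 1 (Clu), and 2 (Lcn2 and Clu) under normexp and with the deposited matrix. Under quantile normalization it was also 1, but Lcn2 in place of Clu. The 3 members called higher within males fell to 1 (Cd44) with no filter on dim probes, and ranged from 1 to 3 with each mouse left out, with 1 without control 1, control 4, control 7, control 8 or NEKO 6. Signs turned for 5 values that were not called. The Havcr1 effect in males minus that in females (-0.076) ran from -0.93 to 0.78, being positive without control 1 (0.26), NEKO 2 (0.78), NEKO 6 (0.16) or control 7 (0.010). The Havcr1 difference within females ran from -1.23 to 0.48 (without NEKO 3), and was 0.016 under normexp. The Vcam1 difference ran from -0.14 (without NEKO 6) to 0.28, with -0.050 without control 4. The Anxa2 difference ran from -0.017 (without control 4) to 0.19, and within females from -0.24 to 0.17 (without control 1). The causes were not tested. Havcr1 and Sox9 have no value with detection required on all 8 arrays. The scalings moved the median of all named genes by under 0.1. Dim probes of Havcr1, Sox9 and Cd44 limit what their lowest levels can show.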
